A study of Arabidopsis thaliana with 6 samples.

Results

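The genes described here are 9 regulators of flowering time in Arabidopsis thaliana, chosen by their gene identifiers from the 39351 features of an RNA immunoprecipitation sequencing (RIP-seq) table. They are FLM (AT1G77080, also MAF1), MAF2 (AT5G65050), MAF3 (AT5G65060), MAF4 (AT5G65070), MAF5 (AT5G65080), SVP (AT2G22540), AGL24 (AT4G24540), SOC1 (AT2G45660) and FT (AT1G65480). The experiment asked which RNAs are bound by NSRa, a nuclear speckle RNA binding protein that takes part in alternative splicing. RNA was immunoprecipitated with an anti-HA antibody (RIP, 2 libraries) or with mouse IgG (Mock, 2 libraries) and compared with the RNA of the lysate (Input, 2 libraries).

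All 6 libraries came from whole seedlings of a single genotype, the nsra mutant in the Columbia-0 background carrying pNSRa:NSRa-HA, in which the HA-tagged protein is made from its own promoter. No library came from untagged or wild type plants, so the groups differ in the antibody and the fraction only. All seedlings had received the synthetic auxin NAA for 24 h and had been irradiated with UV light at 0.400 J/cm2, which crosslinks proteins to RNA. The labels disagree on the NAA dose (100 nM or 1 µM) and on the age of the seedlings, which is given as 10, 14 or 15 days. Growth was under a long day of 16 h light and 8 h dark, per the labels.

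Flowering time is set by repressors that hold the meristem in vegetative growth and by floral integrators that pass on the signals of day length, temperature and age. FLM and MAF2 to MAF5 are MADS-domain repressors of the FLC family, and SVP is a partner with which FLM and several MAF proteins bind DNA. SOC1 and FT are the integrators these repressors hold down: FT is the mobile protein made in leaves, and SOC1 is a MADS-domain activator in the meristem. AGL24, the closest relative of SVP, acts in the opposite direction and promotes flowering together with SOC1. Several of these genes are known for alternative splicing, FLM and MAF2 above all.

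The family members resemble one another in their first coding exon, which bears on how reads can be told apart. FLM lies on chromosome 1 (chr1:28955483-28960234, plus strand in TAIR10.1), while MAF2 to MAF5 stand in tandem on the plus strand of chromosome 5 (MAF2 chr5:25982254-25986435, MAF3 chr5:25987309-25991412, MAF4 chr5:25992193-25996202 and MAF5 chr5:25997504-26002619). The first coding exon, which encodes the DNA-binding MADS domain, is shown for these 5 genes from the start codon on, 185 bases each, read from the RefSeq reference genome. Capitals mark the bases that differ from FLM at the same place.
FLM: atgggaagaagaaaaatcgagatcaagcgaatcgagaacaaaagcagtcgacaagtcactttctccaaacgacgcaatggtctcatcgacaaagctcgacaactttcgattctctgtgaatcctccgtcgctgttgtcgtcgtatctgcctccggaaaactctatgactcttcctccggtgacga
MAF2: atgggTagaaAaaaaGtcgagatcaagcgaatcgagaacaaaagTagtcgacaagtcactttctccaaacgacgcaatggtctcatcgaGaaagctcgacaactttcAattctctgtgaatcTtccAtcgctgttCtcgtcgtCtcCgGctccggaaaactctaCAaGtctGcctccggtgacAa
MAF3: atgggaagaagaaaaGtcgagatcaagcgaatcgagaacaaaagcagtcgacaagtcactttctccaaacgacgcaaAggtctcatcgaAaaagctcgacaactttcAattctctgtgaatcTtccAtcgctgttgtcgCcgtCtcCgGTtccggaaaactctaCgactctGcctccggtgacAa
MAF4: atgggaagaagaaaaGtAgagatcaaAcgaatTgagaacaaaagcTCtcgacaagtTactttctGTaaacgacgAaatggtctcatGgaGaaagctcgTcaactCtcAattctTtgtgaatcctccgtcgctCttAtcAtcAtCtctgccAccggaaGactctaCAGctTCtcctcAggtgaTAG
MAF5: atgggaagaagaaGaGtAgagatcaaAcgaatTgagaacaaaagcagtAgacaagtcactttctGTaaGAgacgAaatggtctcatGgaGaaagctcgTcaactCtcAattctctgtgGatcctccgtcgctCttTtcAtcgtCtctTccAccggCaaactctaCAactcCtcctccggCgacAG
MAF3 differed from FLM at 14 of the 185 bases (92.4% identity) and MAF2 at 17 (90.8%), whereas MAF4 differed at 32 (82.7%) and MAF5 at 30 (83.8%). MAF2 and MAF3 were the closest pair in this exon, with 10 differences. The longest run shared exactly by the exons of any pair was 61 bases, between FLM and MAF3, and it was 52 bases between MAF2 and MAF3. In none of the 9 genes was a 75-base window of an exon block found a second time in the genome, the read length being 75 bp. Windows across splice junctions were not searched. By the exon sequence alone a full-length read without errors therefore had a single place, although reads with mismatches were not tested.

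The other 4 genes stand apart from the tandem array: SVP at chr2:9579647-9583901 and FT at chr1:24331373-24333999 on the plus strand, SOC1 at chr2:18807505-18811125 and AGL24 at chr4:12670897-12674106 on the minus strand. None of the 9 overlapped another annotated gene. The table gives 1 value a gene, summed over isoforms, so the alternative exons for which FLM is known could not be measured. These are exon 2 (chr1:28958334-28958391, plus strand, 58 bp) and exon 3 (chr1:28958456-28958501, plus strand, 46 bp), both coding, which define the isoforms FLM-β and FLM-δ. They are shown in lower case as the part of FLM that the value cannot resolve.
FLM exon 2: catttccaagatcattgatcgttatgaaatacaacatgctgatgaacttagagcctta
FLM exon 3: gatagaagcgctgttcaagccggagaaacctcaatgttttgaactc
Of the 11 annotated FLM transcripts, 4 had exon 2 as an exon of its own and 2 had exon 3, and none had both. The bases of exon 2 also lay inside longer exons, such as a retained first intron, so that 9 transcripts held them in all.

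Values are FPKM, fragments per kilobase of merged exon, scaled to the total of counted reads. The merged exons joined every annotated isoform, and this length differed strongly between the genes. For FLM the merged exons measured 4480 bp against a median transcript of 1095 bp, and covered 94.3% of the gene, because some annotated transcripts retain the long first intron. MAF2 was alike, with 3384 bp against 1040 bp and 80.9% of the gene. In the other 7 genes the merged length was 1.00 to 1.64 times the median transcript. FPKM of FLM and MAF2 was thus divided by about 4.09 and 3.25 times the length of a typical transcript, and reads from most of their introns were counted, spliced or not.

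**Figure D1:**
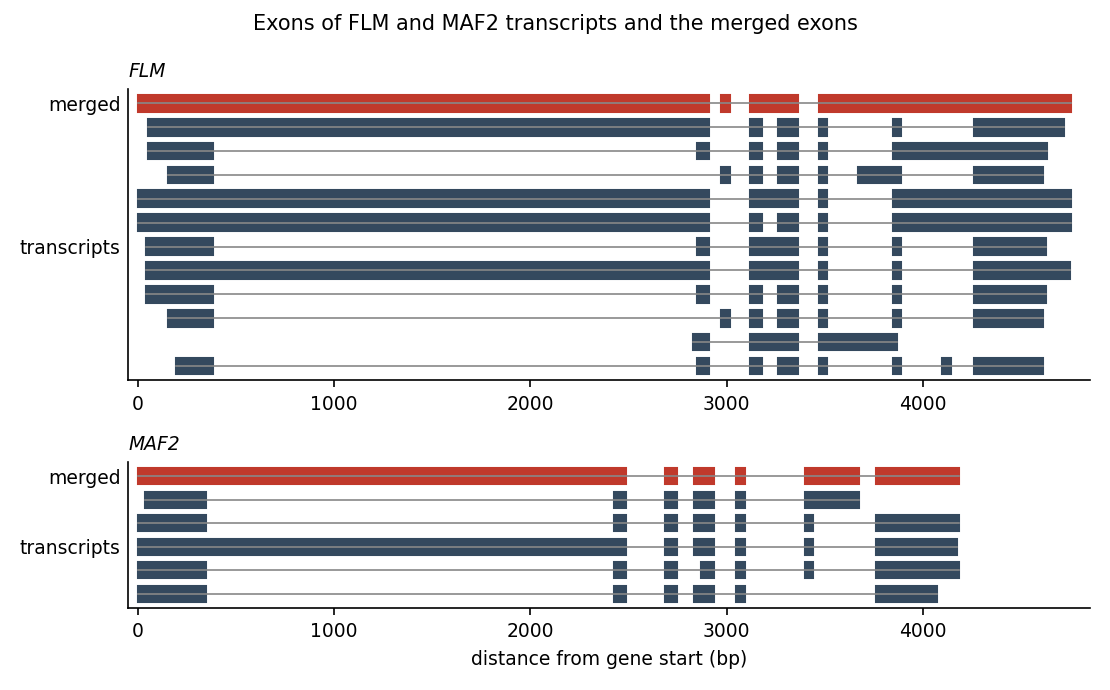
Annotated exons of FLM (top) and MAF2 (bottom) in bp from the gene start, each row 1 transcript, with the merged exons used for FPKM in red. The merged FLM exons cover 94.3% of the gene and the merged MAF2 exons 80.9%, since some transcripts of each gene retain the first intron.

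The depth of the groups differed widely. The Input libraries held 25274634 to 27494964 reads, the RIP libraries 977230 to 1599136 and the Mock libraries 154149 to 197923. A single read was worth 0.0364 to 0.0396 CPM (reads scaled to the library total) in Input, 0.625 to 1.02 CPM in RIP and 5.05 to 6.49 CPM in Mock. The Mock replicates also differed: of 617 features with at least 40 reads in Mock replicate 1, 154 had no read in Mock replicate 2. Among the features with as many reads in RIP replicate 1, 0.419% were at 0 in RIP replicate 2. Of features with at least 10 reads in Mock replicate 1, 36.0% were at 0 in Mock replicate 2, and 61.1% the other way. The labels call the libraries of a group duplicates without saying whether they came from separate plants, so p-values measure the spread between these libraries. A group without a read for a gene adds no spread to its fit. The p-values of such genes rest on the other groups and on the spread shared over features. The NSRa transcript, which the transgene supplies, was checked first and held 11.4 and 12.1 FPKM in Input, 145 and 105 FPKM in RIP, and 181 and 60.3 FPKM in Mock. It was thus high with either antibody, with a pooled share of reads 11.1 times that of Input in RIP and 10.9 times in Mock. The 3 leaf markers were detected in every library, with a summed FPKM of 19229 to 19545 in Input, 10666 to 11859 in RIP and 5635 to 14042 in Mock. CAB1 and RBCS1A carried this sum, while the third, LHCB2.1, held 3440 and 3392 FPKM in Input, 227 and 31.3 FPKM in RIP, and 111 and 138 FPKM in Mock. Root markers summed to 33.9 to 36.9 FPKM in Input and 37.2 to 41.2 FPKM in RIP, where 2 of 5 were detected, and to 0 in Mock. The part of these markers in the results was not tested. Of 6 flower markers all were detected in Input at a summed 4.16 to 4.19 FPKM, with a sum of 0 to 5.57 in RIP and 0 in Mock. The stem cell marker CLV3 had 0 and 1 read in Input.

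In the lysate the mean level of the 9 transcripts ran from 0.406 FPKM (MAF5) to 63.6 FPKM (SVP). In whole seedlings few expressing cells and little RNA in each cell cannot be told apart. SVP stood at 63.6 and 63.5 FPKM and SOC1 at 45.4 and 46.0 FPKM, above 94.4% and 91.9% of the 27442 protein-coding genes. MAF2 followed at 11.2 and 11.1 FPKM, MAF3 at 8.79 and 10.6 FPKM, FLM at 8.47 and 8.34 FPKM and AGL24 at 4.13 and 3.84 FPKM. MAF4 held 1.44 and 1.92 FPKM. FT, the florigen gene, had only 0.709 and 0.487 FPKM (19 and 12 reads), and MAF5 0.296 and 0.516 FPKM (10 and 16 reads). The replicate values of FT and MAF5 overlapped, so their order was not resolved. MAF3 replicate 1 lay within the counting error of FLM, as the exact 95% intervals of 7.90 to 9.76 FPKM for MAF3 and 7.81 to 8.89 FPKM for FLM replicate 2 overlapped. All other neighbours in this order were separated in both replicates, although the interval of MAF3 replicate 2 (9.55 to 11.7 FPKM) overlapped that of MAF2. Intervals here and below cover counting error only, and reads without molecular identifiers are not independent molecules.

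The order depended on the length used. Per median RefSeq transcript, an alternative chosen after seeing the data, FLM stood at 34.4 FPKM on average in place of 8.40 FPKM and MAF3 at 12.3 FPKM in place of 9.68 FPKM, so that FLM passed MAF3 and moved from the fifth to the fourth place. MAF2 stood at 36.2 FPKM on that scale. The other 7 genes kept their places.

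**Figure D2:**
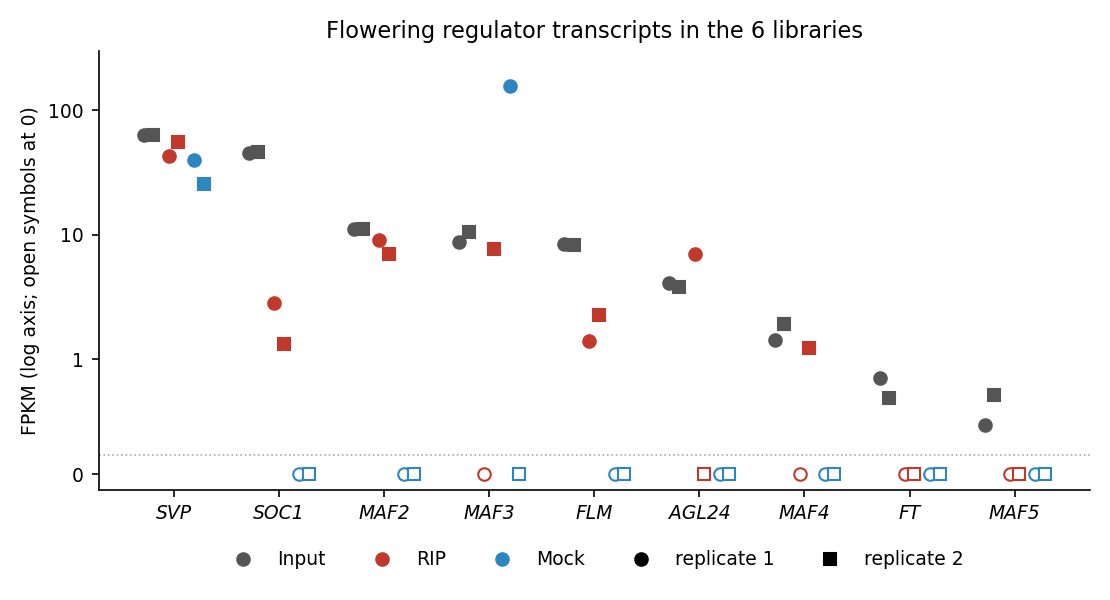
FPKM of the 9 genes on a log axis in the Input (grey), RIP (red) and Mock (blue) libraries, circles for replicate 1 and squares for replicate 2, with open symbols for libraries at 0. SVP had values in all 6 libraries, SOC1 dropped from about 45 FPKM in Input to 2.82 and 1.32 FPKM in RIP, and MAF3 reached 155 FPKM in Mock replicate 1 only.

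The comparison of RIP with Input asks which transcripts NSRa-HA pulled down beyond their level in the lysate. None of the 9 genes was called higher in RIP, and SOC1 was called lower. A level of 1 FPKM or more in 2 or more libraries was required for testing, which 7 genes met, and of these 0 were called higher and 1 lower (limma on log2(FPKM + 1), absolute log2 difference above 2, Benjamini-Hochberg adjusted p under 0.01). Over all 19997 features tested 1.48% were called higher and 5.78% lower (296 and 1155 features, or 273 and 298 under quantile normalization). With neither the size limit nor the adjustment, at a p under 0.05, the counts were 0 and 2, and voom on the recovered reads called 0 in either direction. The median log2 difference of the 7 genes was -0.83, against -0.52 for all features. MAF5 and FT did not pass the filter and were not tested. No gene of the 9 met the definition of a putative NSRa target, which asks for a call in RIP against both Input and Mock with each RIP library reaching 2 CPM.

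SOC1 fell steeply. Its FPKM was 45.4 and 46.0 in Input but 2.82 and 1.32 in RIP, with no overlap of the groups. In reads this was 1938 and 1806 in Input against 7 and 2 in RIP, where the share in Input would have given 183 reads in the RIP libraries together. The pooled share of reads in RIP was 0.0492 of that in Input (exact 95% counting interval 0.0225 to 0.0936). The log2 difference was -3.97 ± 0.30 (SE, adjusted p = 0.00191 by limma with Benjamini-Hochberg adjustment), lower than in all but 1.07% of the features tested. The size changed little between settings, but the adjusted p of this limma fit was 0.0335 without Input replicate 1 and 0.0339 without Input replicate 2, which is above the threshold of 0.01. With voom it was 0.0674. Without RIP replicate 1 the count of lower genes was 2, AGL24 being the other.

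FLM was also low in RIP in both libraries. It held 8.47 and 8.34 FPKM in Input and 1.40 and 2.28 FPKM in RIP, without overlap. These were 1043 and 944 Input reads against 10 reads in each RIP library. The log2 difference of -1.74 ± 0.19 (SE, limma with Benjamini-Hochberg adjusted p = 0.00606) did not reach the size asked of a call. A lower difference was found for 17.3% of the features tested.

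MAF2, the family member with the same Input depth as FLM, kept far more of its share. Its FPKM was 11.2 and 11.1 in Input and 9.05 and 6.96 in RIP. FLM and MAF2 had 1987 and 1985 Input reads in all, but 20 and 72 RIP reads. The pooled share in RIP was thus 0.206 of Input for FLM (counting interval 0.126 to 0.319) and 0.743 for MAF2 (0.579 to 0.940), and these intervals did not overlap. MAF2 had more reads than FLM in each RIP library, 49 against 10 in replicate 1 and 23 against 10 in replicate 2. A test of this difference between genes over replicates was not run. The log2 difference of MAF2 was -0.44 ± 0.19 (SE, adjusted p = 0.207 by limma), above that of 52.5% of the features tested.

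SVP was present in both RIP libraries. Its FPKM was 63.6 and 63.5 in Input and 42.6 and 56.0 in RIP, with a log2 difference of -0.37 ± 0.41 (SE, adjusted p = 0.649 by limma). This difference was above that of 54.7% of the features tested. From 293 reads at the Input share, 220 were found, a ratio of 0.750 (0.653 to 0.858), which is within counting error of that of MAF2. The RIP values lay below both Input values, at a distance smaller than the fitted spread, which the Mock libraries also entered.

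MAF3 and AGL24 were found in a single RIP library each. MAF3 had 0 reads in RIP replicate 1 and 11 reads (7.69 FPKM) in replicate 2, where 22.6 and 13.8 reads would have matched Input. AGL24 was the reverse, with 13 reads (7.04 FPKM) in RIP replicate 1 and 0 in replicate 2. Such one-sided reads were not rare at this depth: of 14019 features with at least 10 reads in RIP replicate 1, 778 (5.55%) had none in replicate 2, and 299 of 11351 (2.63%) the other way. The log2 difference was -1.85 ± 2.81 (SE) for MAF3 and -0.81 ± 1.07 (SE) for AGL24 (limma with Benjamini-Hochberg adjusted p = 0.765 and 0.715). The spread of MAF3 in this fit took in its Mock libraries, at 155 and 0 FPKM. Both RIP values of MAF3 lay below both Input values, with a pooled share 0.302 of that in Input (counting interval 0.150 to 0.544). AGL24 turned to 0.69 without RIP replicate 2 and to -2.32 without RIP replicate 1, so 1 library decided its direction.

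The weakest members could not be judged. MAF4 had 0 and 2 RIP reads where the Input share would have given 7.08, and its log2 difference was -0.83 ± 0.43 (SE, adjusted p = 0.279 by limma). FT and MAF5 had no RIP read, where only 1.51 and 1.27 reads would have matched Input. The counting interval allows FT up to 2.59 times and MAF5 up to 3.12 times its Input share in RIP, so a depletion or a modest rise of these transcripts was not detectable at this depth.

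**Figure D3:**
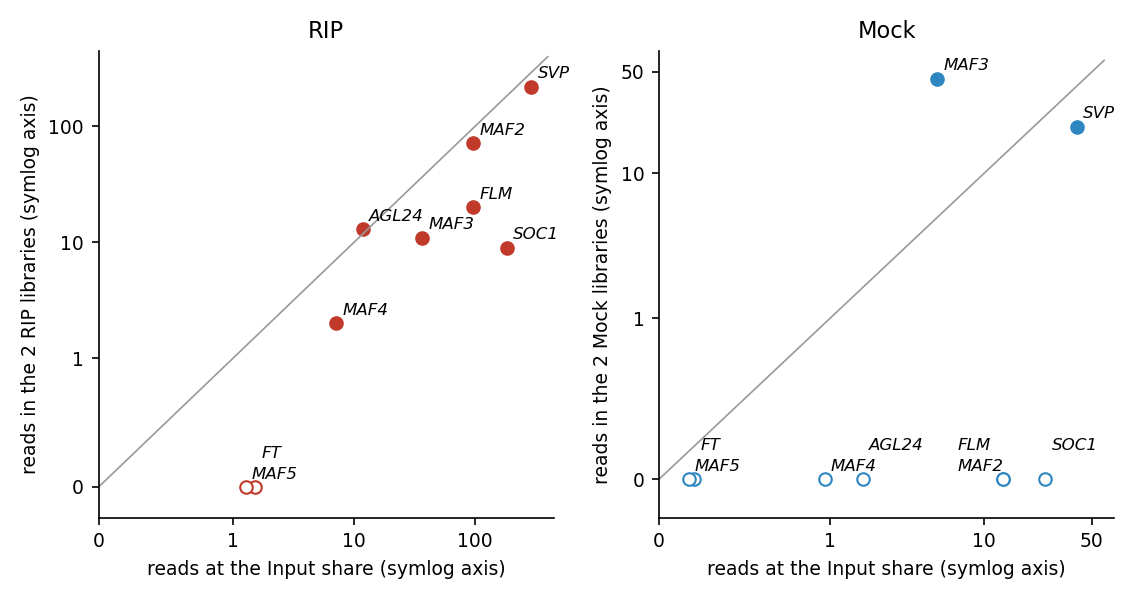
Reads found for each gene in the RIP libraries (left, red) and in the Mock libraries (right, blue), summed over replicates, against the reads its Input share would give, both axes linear below 1 and log above. The line marks equality and open circles a count of 0: SOC1 had 9 RIP reads against 183, MAF2 72 against 96.9, and MAF3 45 Mock reads against 4.97.

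The Mock libraries give the background of the pull-down. Here 5 of the 7 genes that could be tested had no read: FLM, MAF2, MAF4, AGL24 and SOC1. A lack of Mock reads was common, with 2449 and 5651 features above 0 in Mock against 17232 and 17506 in RIP. Of the 50 tested flowering genes described below, 38 had no Mock read. Among the 5 members, SOC1, MAF2 and FLM were called lower in Mock than in Input (log2 differences of -5.55, -3.60 and -3.23, limma with Benjamini-Hochberg adjusted p = 0.000284, 0.000267 and 0.000334). The call was common, with 41.0% of all features tested lower in Mock, against 3 of the 7 genes. With 0 reads these fitted differences depend on the pseudocount of 1 FPKM, and the Mock libraries add no spread to their p-values. Set against a floor of 3 reads over the group, Input was 8.33-fold higher than Mock for SOC1, 4.42-fold for FLM and 4.41-fold for MAF2. The floor covers counting error only, and the Mock libraries differed by more, so these folds are not lower bounds. The median log2 difference of the 7 genes was -2.32 against -2.70 for all features, and -0.98 with the genes at 0 placed at that floor. The median over all features was not placed at it. Under quantile normalization, with 161 features higher and 574 lower, SOC1 was the only member called. MAF4 was at -1.42 (adjusted p = 0.0462 by limma) and AGL24 at -2.32 ± 1.07 (SE, adjusted p = 0.131 by limma), and neither passed. FT and MAF5, which were not tested, had no Mock read either, where 0.207 and 0.173 reads would have matched Input.

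SVP was the only member with reads in both Mock libraries, 14 and 7 (39.5 and 25.4 FPKM). Its pooled share was 0.524 of Input (0.324 to 0.802), and the log2 difference was -0.98 ± 0.41 (SE, adjusted p = 0.107 by limma).

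MAF3 stood out in Mock replicate 1. It held 45 reads there (155 FPKM) and 0 in Mock replicate 2, against 2.79 and 2.18 at the Input share. Its FPKM in that library exceeded every other value of the 9 genes in any library. It is among the 154 of 617 features with at least 40 reads in Mock replicate 1 that had none in replicate 2. The log2 difference between Mock and Input was 0.23 ± 2.81 (SE, adjusted p = 0.948 by limma) and became -3.41 without Mock replicate 1.

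**Figure D4:**
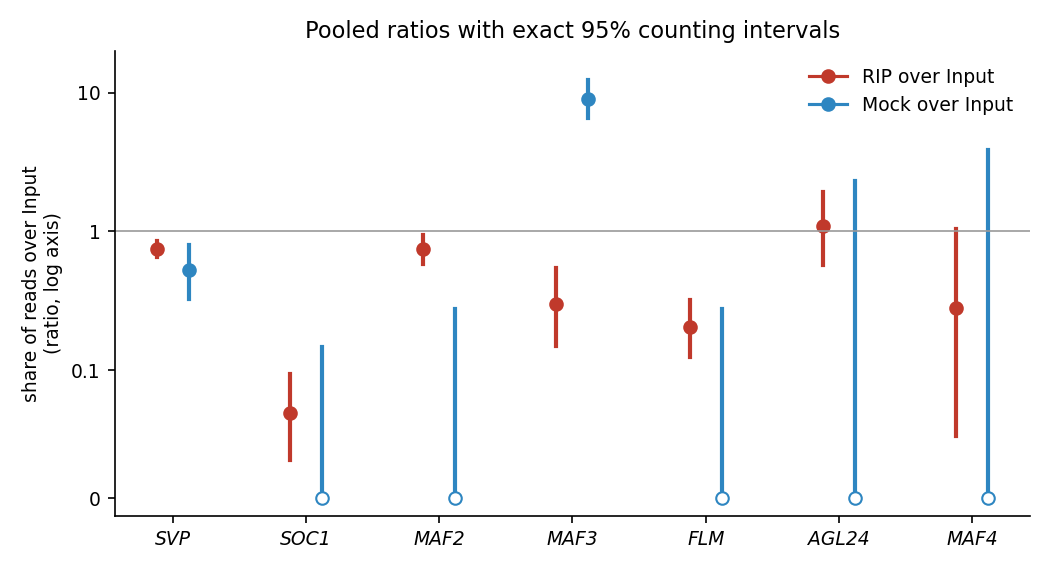
Share of reads in RIP (red) and in Mock (blue) divided by the share in Input for the 7 genes tested, pooled over replicates, on a log axis with exact 95% counting intervals as bars and open circles at 0. SOC1 (0.0492) and FLM (0.206) lay lowest in RIP, SVP (0.750) and MAF2 (0.743) lay just under 1, and MAF3 reached 9.05 in Mock through 1 library.

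RIP was then set against Mock, which shares the pull-down but not the antibody. The 3 comparisons use the same 6 libraries and are not independent. Of the 7 genes, MAF2 and FLM were called higher in RIP, beside 34.3% of all features (6853 higher and 36 lower, limma, log2 difference of at least 1, Benjamini-Hochberg adjusted p under 0.01). MAF2 had 49 and 23 RIP reads and 0 Mock reads in each library, with a log2 difference of 3.16 ± 0.19 (SE, adjusted p = 0.000631). Against the floor of 3 reads over the Mock group its RIP level was 3.28-fold higher, which allows for counting error only. FLM had 10 and 10 RIP reads and 0 Mock reads, with a log2 difference of 1.49 ± 0.19 (SE, adjusted p = 0.00464). At its share in RIP only 2.73 Mock reads would have been found, fewer than the floor, so for FLM the reads set no lower bound above 1. Quantile normalization, which brought the median over all features down to -0.17 and gave 228 higher and 1785 lower, turned the sign for FLM (-0.65). Voom gave 26 higher and 1681 lower features and called neither gene. Neither gene was called when only the RIP and Mock libraries were fitted. That fit called 0 of all 19997 features, so it says nothing particular about these genes. The calls among the 7 genes also changed when 1 library was left out, as did those over all features.

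The other members did not pass. SOC1 was at 7 and 2 RIP reads and 0 Mock reads, with a log2 difference of 1.57 ± 0.30 (SE, adjusted p = 0.0165 by limma), and only 1.23 Mock reads would have matched its share in RIP. SVP, with reads in all libraries, gave 0.61 ± 0.41 (SE, adjusted p = 0.335). MAF4, with 2 RIP reads in all, gave 0.58 (adjusted p = 0.337). For AGL24 and MAF3 the groups overlapped, with 1.50 ± 1.07 and -2.08 ± 2.81 (SE, adjusted p = 0.335 and 0.617), and the value of MAF3 became 1.56 without Mock replicate 1. The median log2 difference of the 7 genes was 1.49, against 2.13 for all features. It was -0.76 when the 5 genes without a Mock read were placed at the floor of 3 reads. The median over all features was not placed at this floor. For FLM, AGL24, SOC1 and MAF4 the RIP level was only 0.911, 0.592, 0.410 and 0.0911 of the floor. The value of -0.76 thus gives the place of the floor and no direction between RIP and Mock.

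The genes around the 9 in the flowering pathway were read from lists of 62 genes, of which 50 could be tested. In RIP against Input 0 were called higher and 4 lower by limma, beside 1.48% and 5.78% of all features. At an unadjusted p under 0.05 in the same fit, 3 were higher and 17 lower in RIP. The median log2 difference of the 50 genes was -0.41, against -0.52 for all features. Voom on the recovered reads and quantile normalization called 0 of the 50 in either direction. Over all features voom called 39 higher and 6 lower, and quantile normalization 273 higher and 298 lower. The lower calls rose when a RIP replicate was left out, as did those over all features. MFT, a relative of FT known from seed germination, had 467 and 479 Input reads and no RIP read (log2 difference -3.75, Benjamini-Hochberg adjusted p = 8.74e-05). AGL42, a close relative of SOC1, had 272 and 261 Input reads and no RIP read (-2.87, adjusted p = 8.74e-05). Neither gene had a Mock read either, so only the Input libraries added spread to these fits. Both genes passed the filter through the Input libraries alone, so only a lower call against Input was open to them. The pooled RIP share was at most 0.0800 of Input for MFT and 0.142 for AGL42 by the counting interval. In Mock 26 of the 50 genes were called lower than in Input, beside 41.0% of all features. This count was 11 with voom and 1 under quantile normalization, where 2577 of 19832 and 574 of 19997 features were called lower. It also fell when an Input replicate was left out, as did the count over all features. In RIP 20 of the 50 were called higher than in Mock, beside 34.3% of all features. None of the 50 was called higher when only the RIP and Mock libraries were fitted, a fit that called 0 of all features. Voom called 0 higher and 7 lower, and quantile normalization 0 and 8. Of the 50 genes, 7 had no read in RIP or in Mock, so their reads give no direction between these groups. Over all features voom called 26 higher and 1681 lower, and quantile normalization 228 and 1785. Fewer of the 50 were called higher when an Input replicate was left out, as over all features.

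Chromatin regulators of the FLC and MAF genes were the list with a median above 0 in RIP against Input, 0.19 over 18 of 19 genes. The 3 genes with an unadjusted p under 0.05 and higher RIP were all in it, beside 3 with lower RIP. The higher ones were ELF6, a histone demethylase, VIL1, a partner of the Polycomb complex, and VIP5, a subunit of the Paf1 complex. ELF6 had 1147 and 1128 Input reads and 227 and 99 RIP reads, with a log2 difference of 1.38 ± 0.24 (SE, adjusted p = 0.0265 by limma). VIL1 gave 1.05 (adjusted p = 0.0409) and VIP5 0.83 (adjusted p = 0.102), and none of them was called. Lower in this list were VIP3, another Paf1 complex subunit (-2.26, adjusted p = 0.00108, 4 and 3 RIP reads), and SEF of the SWR1 complex (-3.10, adjusted p = 8.74e-05). SEF had 0 reads in RIP and in Mock, so only the Input libraries added spread to its fit. It too passed the filter through the Input libraries alone, so only a lower call against Input was open to it. VIP4, the member with the highest Input, was at -0.09 (adjusted p = 0.882). In RIP against Mock 12 of the 18 were called higher, beside 34.3% of all features. The count was 0 when only the RIP and Mock libraries were fitted, as it was over all features. It was 0 with voom (1 lower) and with quantile normalization (1 lower), where 26 and 228 of all features were called higher. SEF, without a read in RIP or Mock, has no direction between these groups in its reads. The count of higher calls also fell when an Input replicate was left out, as did the count over all features.

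The medians of the other lists in RIP against Input were negative. They were -1.36 for the FT/TFL1 family and FD (4 genes), -0.40 for photoperiod genes (10 genes), -0.85 for AP2-like and TEM repressors (8 genes), -1.38 for SPL genes (4 genes) and -1.54 for other MADS relatives (6 genes). With genes that had no RIP read placed at the floor of 3 reads, the SPL value was -1.29 and the last -1.30. AGL42, called lower as given above, had the highest Input of the MADS relatives. The genes of highest Input in the other lists, ATC (-1.18), CDF3 (-2.75), TOE1 (-1.27) and SPL9 (-2.70), did not pass the test (limma with Benjamini-Hochberg adjusted p = 0.0442, 0.110, 0.597 and 0.0164). The meristem identity genes LFY, AP1, CAL and FUL were below the filter, with 0 to 18 reads in an Input library, so none was tested.

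**Figure D5:**
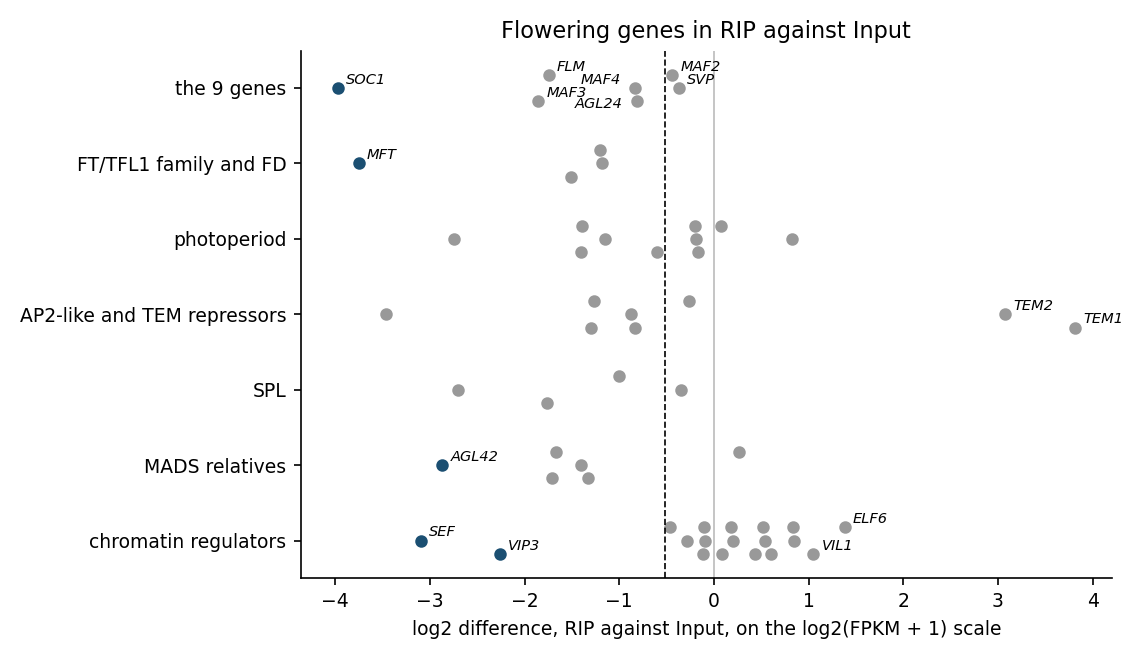
Log2 difference of RIP against Input for the 7 genes tested and for the 50 tested genes of the flowering lists, 1 point a gene, with genes called lower in blue and the median of all features (-0.52) as a dashed line. SOC1 (-3.97) and MFT (-3.75) lay farthest to the left, and the chromatin regulators centred at 0.19.

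The transcripts most like each member over the 6 libraries were found by the Euclidean distance between centred log2(FPKM + 1) values among 19089 tested protein-coding genes. MAF2 lay closest to NRPB3, a subunit of RNA polymerase II (distance 0.0402), and FLM to AT5G41800 (0.0915). For SVP the nearest was ABI1, a phosphatase of abscisic acid signalling (0.337), and for SOC1 it was AT4G16880 (0.329), with LBD29, an auxin-responsive regulator of lateral roots, next (0.581). MAF3 had no close match, the nearest being APT2 at 0.778, with 131 FPKM in Mock replicate 1 and 0 in Mock replicate 2. Within a distance of 1 there were 1857 genes for MAF2, 388 for FLM, 20 for SOC1 and 4 for MAF3. With few reads many genes take like values, so this is a description only.

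For SOC1 and SVP, an assembled antisense locus was looked up, and none was looked up for the other genes. The assembled locus annotated by the study as antisense to SOC1 was listed at 0 in all 6 libraries, and the locus antisense to SVP at 0.208 FPKM in Input replicate 2 and 0 elsewhere.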

How the data were processed

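Single-end 75 bp reads of rRNA-depleted RNA were aligned with STAR and counted per gene by strand with summarizeOverlaps in Union mode, as the study's methods state, on the build TAIR10 per the submitters' processing notes. Tool versions are not given in the sources used here. The deposited table is named as counts, but its values are FPKM scaled by the authors. Multiplied by the merged exon length, 99.2 to 99.3% of values above 0 were whole multiples of 1 step per library within 0.02 reads, from which reads and library totals were recovered. A count model was not the main test, as the values are not counts.

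The 6 libraries were grouped by their titles. For the 19997 features that reached 1 FPKM in 2 or more libraries, log2(FPKM + 1) was fitted with limma 3.58.1 (R 4.3.3, empirical Bayes with trend) to all 6 libraries, with Benjamini-Hochberg adjustment. This scale understates changes of low genes. Calls needed an adjusted p under 0.01 and an absolute log2 difference above 2 against Input, or of at least 1 in RIP against Mock, after the study's thresholds with CPM for TPM. The fit was also run on simulated reads. The features raised there had a higher RIP level than any of the 9 genes, so calls at the level of these genes were not tested. Exact counting intervals at 95% and a floor of 3 reads were computed on pooled reads. With 2 libraries against 2 no exact permutation test can reach a p of 0.05. Sequences and gene models come from RefSeq TAIR10.1, and all 9 identifiers matched.

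All members are named, and in each flowering list the gene of highest Input and those called or with an unadjusted p under 0.05 and higher RIP. Members and lists were chosen with earlier results of these data known. Alternatives were the pseudocount, the filter, the groups fitted, a replicate block, quantile and median-of-ratios scaling, voom on recovered reads, and leaving out each library. The 968 features without a RIP or Mock value were not tested.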

Additional observations from a re-analysis of the deposited data

How the results depend on the processing

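No member was called higher in RIP against Input or met the target definition under any alternative tried. The 1 lower call in RIP against Input (SOC1) became 0 with the replicate block and with voom, and ranged from 0 to 2 without 1 library. The 2 higher calls in RIP against Mock became 1 without a filter on low values, 0 with only the 2 groups compared, 1 with the replicate block, 0 with quantile normalization and 0 with voom, and ranged from 0 to 4 without 1 library. The 3 lower calls in Mock against Input became 1 under quantile normalization. Voom and quantile normalization turned several directions. In RIP against Input MAF4 became 0.32 (quantile) and AGL24 ranged from -2.32 (without RIP replicate 1) to 0.69 (without RIP replicate 2). In RIP against Mock quantile values were -0.65 for FLM, -1.13 for MAF4, -0.66 for AGL24 and -0.63 for SOC1, voom values -1.10 for MAF4 and -0.96 for AGL24, and MAF3 ranged from -5.73 (without Mock replicate 2) to 1.56 (without Mock replicate 1). In Mock against Input MAF3 became -1.31 with a pseudocount of 0.1 FPKM and ranged from -3.41 (without Mock replicate 1) to 3.88 (without Mock replicate 2), MAF4 1.45 (quantile) and 0.052 (voom), and AGL24 0.62 (quantile). FLM, MAF4, AGL24 and SOC1 had 20, 2, 13 and 9 RIP reads in all and no Mock read. Their negative values in RIP against Mock thus do not stand for more Mock reads. The same holds for the positive values of MAF4 and AGL24 in Mock against Input. The cause of these changes was not tested.

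Over all features, the calls higher in RIP against Input went from 296 to 152 with the block, 39 with voom and 56 to 599 without 1 library. Lower calls went from 1155 to 1972 (pseudocount of 0.1 FPKM), 298 (quantile, beside 273 higher), 6 (voom) and up to 2575 without 1 library. Calls higher in RIP against Mock went from 6853 to 0 (2 groups), 228 (quantile), 26 (voom) and down to 2577 without 1 library, and lower calls in Mock against Input from 8205 to 574 (quantile, with 161 higher in place of 143), 2577 (voom, with 211 higher) and down to 3490. Quantile normalization moved the median log2 difference of all features from -0.52 to -0.0017 in RIP against Input and from -2.70 to 0.12 in Mock against Input, and voom that of Mock against Input to -1.87. Same-numbered libraries did not deviate together (correlations of 0.0085 for RIP and Input, 0.012 for RIP and Mock and -0.0017 for Mock and Input), so the samples share only a number. With the replicate block the limma adjusted p of SOC1 in RIP against Input was 0.0105 and that of FLM in RIP against Mock 0.0153, while MAF2 in RIP against Mock stayed called at 0.00586. Depth limits the report most in Mock, where 1 read is worth 5.05 to 6.49 CPM.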

Other observations

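The largest positive values among the flowering lists belonged to TEM1 and TEM2, repressors that act on FT, which fell outside the naming rule and were chosen after their values were seen. TEM1 had 539 and 505 reads in Input, 404 and 350 in RIP and 0 and 26 in Mock, a pooled RIP share 14.8 times that of Input (exact 95% counting interval 13.5 to 16.3) and a Mock share 3.73 times that of Input. TEM2 had 964 and 855 reads in Input, 763 and 191 in RIP and 0 and 36 in Mock, with pooled shares 10.7 and 2.97 times that of Input. In both genes every RIP library lay above both Input libraries in FPKM. In the fit of all 6 libraries neither was called (TEM1 log2 difference 3.81 ± 2.36, SE, adjusted p = 0.370, TEM2 3.08 ± 2.48, adjusted p = 0.502, limma with Benjamini-Hochberg adjustment). In a fit of the RIP and Input libraries alone the standard error of TEM1 was 0.21 and it was called higher (adjusted p = 0.00287), while TEM2 had an adjusted p of 0.0318 and was not. In RIP against Mock neither was called, with adjusted p = 0.278 for TEM1 and 0.335 for TEM2.

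REF6, a histone demethylase related to ELF6, had 41 reads in Mock replicate 1 and 0 in Mock replicate 2. EFS, a histone methyltransferase, had 35 and 7 Mock reads.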
